A study of Drosophila melanogaster with 8 samples.

Results

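The genes described here are 46 Drosophila melanogaster genes that the deposited tables list only by a CG number, the identifier that the fly genome annotation gives to a predicted gene without a name. They were chosen by their levels. Each was listed at 20 FPKM or more in larvae labelled as the Hsp90GFP hsromega66 recombinant, and that level was at least 10 times the highest of the 3 other groups. FPKM, a fragment count scaled to library size, is also divided by gene length, so that levels of different genes can be set side by side. The 46 genes were 0.676% of the 6806 rows with a single CG symbol, and 3.5% of the 1313 such rows at 20 FPKM or more in the recombinant-labelled libraries. The series holds 15904 rows in all.

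RNA came from whole wandering larvae at the end of larval life, with 8 libraries in 4 groups. WT was Oregon R+. The hsromega66 larvae had the genotype w1118; Sp/CyO'; hsromega66, the Hsp90GFP larvae w1118; Sp/CyO'; hsp90GFP, and the last group was labelled w1118; Sp/CyO'; hsp90GFPhsromega66. By label, all groups other than WT thus share a background that WT lacks, and any comparison with WT also compares backgrounds. Whether the last group matches the single genotypes elsewhere in the genome was not tested. Its levels of l(2)gl and Lsp1gamma, given below, differed from those of both. The hsromega66 allele leaves next to nothing of hsromega, the long non-coding RNA of nuclear omega speckles, and the Hsp90GFP larvae make extra Hsp83, a heat-shock protein of the Hsp90 type. Each library pooled 5 larvae and each group had 2 libraries, but the authors' tables give 1 FPKM per gene and group. No spread between libraries can therefore be set beside a level, the depth is unknown, and calls rest on the authors' own test. Whole-larva RNA also cannot tell apart more cells of a type and more RNA per cell.

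The level of the Hsromega row went against the label of the last group. It was listed at 236.2 FPKM in WT, 0.767 in hsromega66 and 273 in Hsp90GFP, but 77.9 in the recombinant-labelled libraries, whereas a near-null allele would give a level like that of hsromega66. Hsp83 was listed at 371, 427, 1616 and 968 FPKM in the same order. The tumour suppressor gene l(2)gl was at 59.6, 109 and 65.9 FPKM in WT, hsromega66 and Hsp90GFP, and at 0.0516 FPKM in the recombinant-labelled libraries. Those libraries are named by their label throughout. Over the 9231 rows at 1 FPKM or more in every group, the median ratio to WT was 1.04 in them, 0.992 in hsromega66 and 0.982 in Hsp90GFP.

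The last larval days change the body. A feeding larva breaks down food in the midgut with secreted and membrane-bound peptidases, lipases and glycosidases, while epidermis and fat body lay down cuticle and store fat and protein. When the larva stops feeding and wanders, pulses of the steroid hormone ecdysone start the salivary glands making glue proteins and shut down part of the larval programme. CG numbers hide the roles of many genes of these tissues, since several large gene families of the gut and cuticle have few named members. In the current annotation all 46 are protein-coding, and 7 of them now carry a name, so "unnamed" holds only for the deposited tables: CG9466 is LManV, CG9468 LManVI, CG4753 Agpat4, CG5791 BomBc3, CG9780 Nepl11, CG5278 sit and CG5599 Dbct. A role could be given to 17 of the 46 from textbook knowledge of their families: 7 peptidases, 2 mannosidases, 4 enzymes of lipid metabolism, 3 genes of mitochondrial metabolism and 1 immune peptide.

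Across the 46, the median level was 1.37 FPKM in WT, 2.91 in hsromega66 and 3.06 in Hsp90GFP, but 108 in the recombinant-labelled libraries, where levels ran from 23.3 FPKM (CG13545) to 4881 FPKM (CG32198). The ratio to the highest other group had a median of 17.5 and ran from 10.04 to 377, with 12 genes at 50 times or more, 21 at 20 times or more and 25 under 20 times. Those values chose the genes and are a description. The other groups were not empty: 23 genes were at 1 FPKM or more in each of WT, hsromega66 and Hsp90GFP, and 5 were under 1 FPKM in all of them. Summed over the 46, the level was 477 FPKM in WT, 749 in hsromega66 and 799 in Hsp90GFP, but 16177 in the recombinant-labelled libraries, or 0.0509%, 0.0718%, 0.0895% and 1.34% of all FPKM listed. Most of that sum was held by a few genes, since the 3 highest (CG32198, CG32284 and CG7299) made up 53.1% of it in the recombinant-labelled libraries and 64.0% in WT. Without them the sums were 172, 298, 268 and 7581 FPKM.

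**Figure D1:**
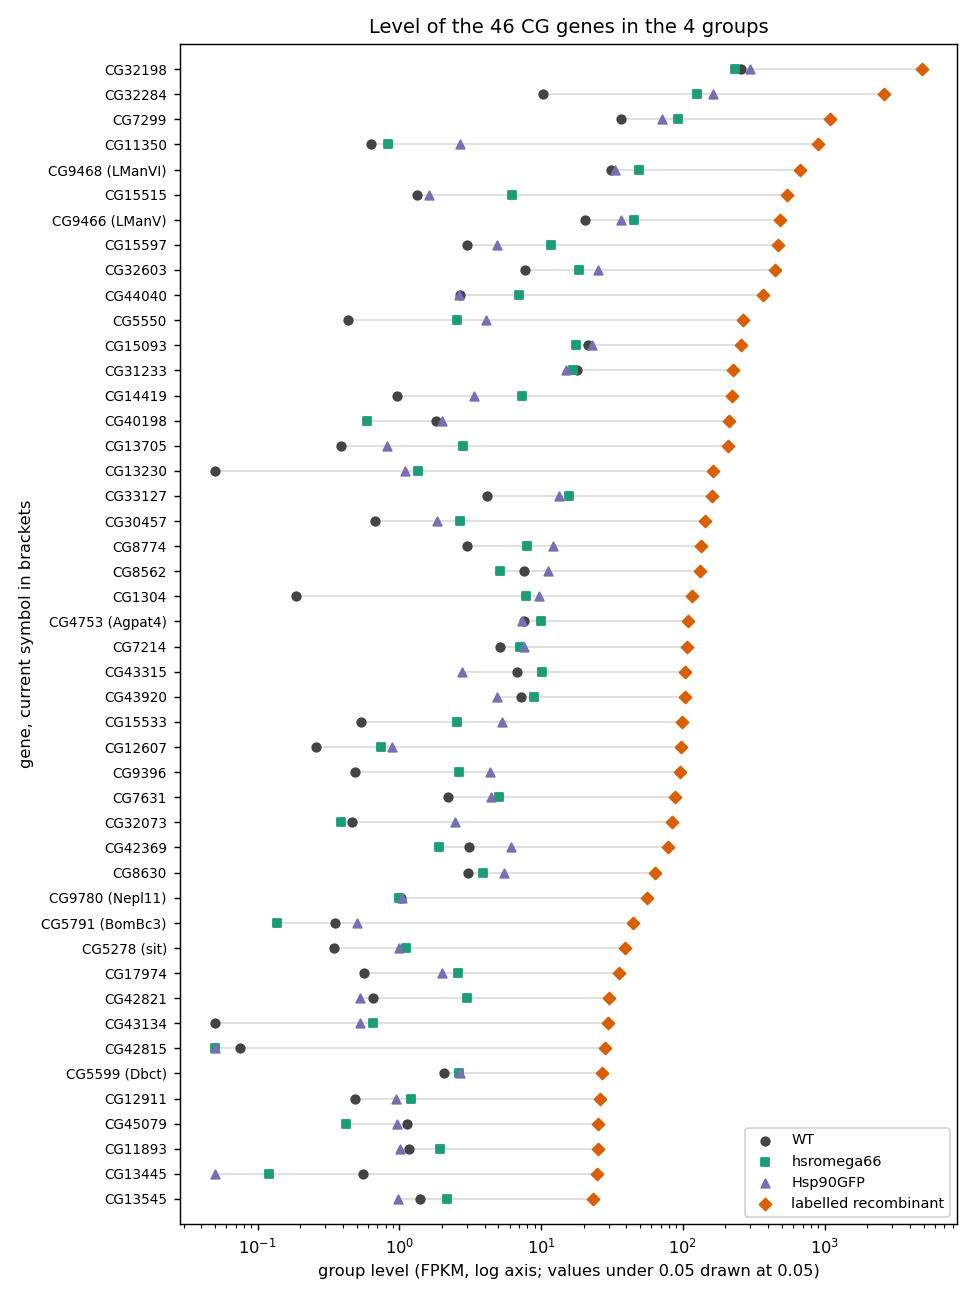
Level of each of the 46 genes in the 4 groups, as 1 deposited FPKM per group on a log axis, with genes in order of their level in the recombinant-labelled libraries (diamonds) and current names in brackets. The diamonds run from 23.3 to 4881 FPKM and stand at least 10 times to the right of every other symbol, as the choice of genes requires, while WT, hsromega66 and Hsp90GFP lie in changing order.

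The mannosidases were the most abundant of the genes with a known role. Lysosomal alpha-mannosidases trim mannose from the sugar chains of glycoproteins inside lysosomes, and flies carry a row of such genes on 2L. CG9468 (LManVI, dm6 2L 8777661 to 8781252, minus strand) was at 31.1 FPKM in WT, 49.4 in hsromega66 and 33.4 in Hsp90GFP, but 676 in the recombinant-labelled libraries. CG9466 (LManV, 2L 8772946 to 8776263, minus strand) was at 20.5, 45.4, 36.4 and 482 FPKM in the same order. The pair lies 1397 bp apart and was one of only 2 pairs among the 46 within 20 kb of each other. The next genes of the row, which missed the thresholds, had the same order of groups: CG9463 (LManIII) was at 4.03, 13.2, 8.30 and 110 FPKM, and CG9465 (LManIV) at 0.416, 1.46, 0.633 and 10.6. In all 4, WT was lowest and hsromega66 the highest of the 3 other groups, while levels within a group differed by over an order of magnitude between genes.

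Of the 7 peptidases, which cut proteins and peptides, CG31233 was the highest, at 17.8 FPKM in WT, 16.7 in hsromega66 and 15.1 in Hsp90GFP, but 226 in the recombinant-labelled libraries. It is an M1 aminopeptidase, an enzyme that takes residues off the amino end of peptides, as is CG8774 (3R 13298768 to 13302334), at 2.99, 7.91, 12.2 and 135 FPKM. The WT level of CG31233 was the highest of its 3 other groups, which was so for only 4 of the 46 genes, and the WT level of CG8774 was the lowest of its 3. Both sit among further aminopeptidases on 3R. Beside CG31233, CG31343 was at 14.2, 64.0, 35.9 and 538 FPKM, CG31198 at 49.5, 83.8, 77.9 and 665, and CG42335 at 0.404, 2.08, 2.37 and 18.7. Beside CG8774, CG8773 was at 12.4, 25.6, 23.5 and 141 FPKM. All 6 aminopeptidases were called higher in the recombinant-labelled libraries against each of the other 3 groups, with ratios to the highest other group of 5.52 to 12.7. For CG31233 and CG8774, chosen on these values, the calls are a description.

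The other peptidase stretches were uneven. CG7631, an astacin metalloprotease on 2L, was at 2.19, 5.04, 4.46 and 88.1 FPKM in WT, hsromega66, Hsp90GFP and the recombinant-labelled libraries, and CG15255, an astacin of the same stretch, at 3.54, 4.94, 15.9 and 111. Between them lie 4 astacin rows. CG15254 was at 3.55, 0.278, 5.93 and 24.6 FPKM and was called higher against WT (q = 0.0378 in the authors' deposited table) but not in the other comparisons. CG15253 reached 1.87 FPKM in the recombinant-labelled libraries and was not called, CG11865 was listed at 0 there, and CG11864 was listed at 0 in all 4 groups. CG8562, a carboxypeptidase, which cuts from the other end of a peptide, was at 7.61, 5.11, 11.3 and 131 FPKM (3L 7398285 to 7399912). The other 5 of the stretch differed among themselves. CG32379 (4.93, 11.1, 2.26 and 19.9 FPKM) was called higher in 2 of the 3 comparisons, and CG8563 (0.616, 1.51, 2.26 and 6.52 FPKM) and CG18417 (3.55, 2.69, 7.11 and 12.2 FPKM) in 1 each. CG8560 stayed uncalled at 237, 323, 169 and 366 FPKM, and CG8564 was called lower in each comparison with the recombinant-labelled libraries, at 10.9, 8.52, 8.89 and 0.550 FPKM. Of the 6 carboxypeptidases in the stretch, CG8562 was the only one called higher in all 3 comparisons. It was chosen on these same values and the others missed the thresholds, so this is a description.

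The serine proteases of the 46 were CG33127 on 2L and CG1304 on X. CG33127 was at 4.16, 15.7, 13.3 and 162 FPKM in WT, hsromega66, Hsp90GFP and the recombinant-labelled libraries. Its neighbours CG11911 (125, 1862, 646 and 483 FPKM) and CG11912 (175, 1174, 800 and 201 FPKM) were listed higher in hsromega66 and Hsp90GFP than in the recombinant-labelled libraries. None of these differences was called (q from 0.176 to 0.968 in the authors' deposited table). CG1304 was at 0.187, 7.82, 9.71 and 116 FPKM, next to Ser6 at 2.01, 12.03, 5.82 and 96.6. WT was far below both single genotypes for CG1304, 41.8-fold below hsromega66 and 51.9-fold below Hsp90GFP, yet neither difference was called (q = 0.482 for both in the authors' deposited table). CG9780 (Nepl11), of the neprilysin family of membrane metallopeptidases, was level at 1.03, 0.988 and 1.04 FPKM in the other groups and at 55.8 in the recombinant-labelled libraries.

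**Figure D2:**
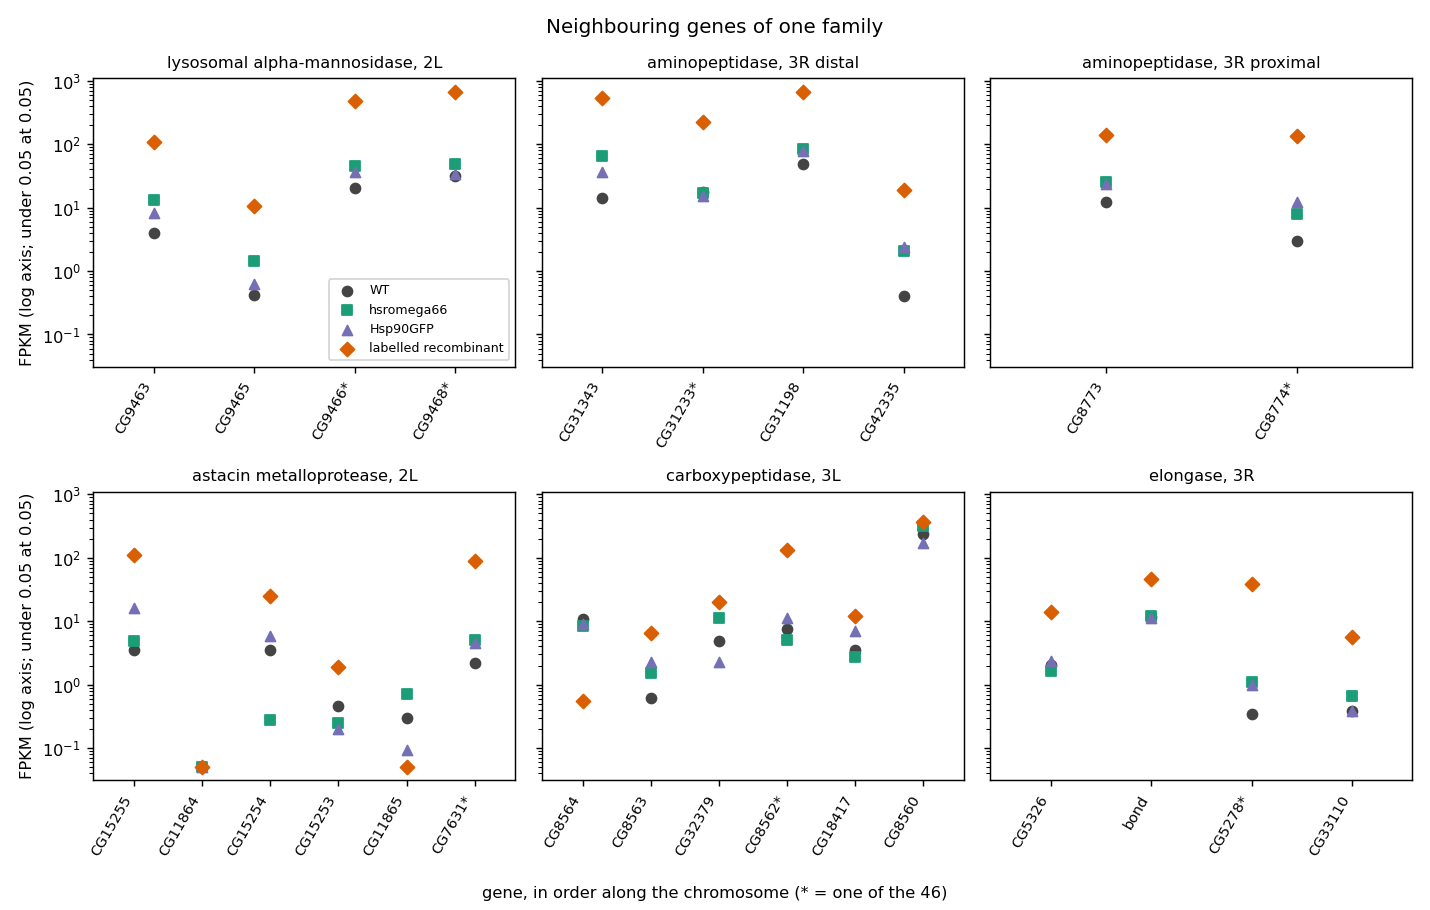
Deposited FPKM per group (log axis) of neighbouring genes of the same family, in their order along the chromosome, with 1 symbol per group and an asterisk on each of the 46. In the mannosidase, aminopeptidase and elongase stretches the recombinant-labelled libraries (diamonds) are highest for every gene drawn, while in the astacin stretch CG11865 is listed at 0 there and CG11864 in every group, and in the carboxypeptidase stretch CG8564 is lowest there, at 0.550 FPKM.

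The 4 enzymes of lipid metabolism ran from 39.1 to 109 FPKM in the recombinant-labelled libraries. All 4, chosen on these values, were called higher in each comparison. CG4753 (Agpat4), an acyltransferase on the route to phospholipids and stored fat, was at 7.53, 9.95, 7.33 and 109 FPKM in WT, hsromega66, Hsp90GFP and the recombinant-labelled libraries. CG15533, an acid sphingomyelinase, which splits the membrane lipid sphingomyelin, was at 0.538, 2.55, 5.26 and 98.3 FPKM, with groups in rising order. CG8630, a fatty acid desaturase, was at 3.05, 3.91, 5.48 and 63.2 FPKM. It forms the second close pair with the aminopeptidase CG8774, 14240 bp away, a pair from different families, with 5 rows between them. Of these the aminopeptidase CG8773, described above, was called higher in each comparison. CG15888, CG15887, Osi22 and wntD were under 1 FPKM in each group. Among them only wntD was called, against WT (q = 0.00372 in the authors' deposited table), at 0 FPKM in WT and 0.639 in the recombinant-labelled libraries. CG5278 (sit), of the family that lengthens very long chain fatty acids, was at 0.348, 1.11, 0.997 and 39.1 FPKM. It stands in a run of 4 elongase genes on 3R that were all called higher in the recombinant-labelled libraries in each comparison, with bond at 11.8, 11.99, 11.4 and 45.6 FPKM, CG5326 at 2.04, 1.66, 2.33 and 14.1, and CG33110 at 0.387, 0.656, 0.391 and 5.57.

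Among the genes of mitochondrial metabolism, CG15093, a 3-hydroxyisobutyrate dehydrogenase of valine breakdown, was at 21.4, 17.7, 22.8 and 258 FPKM in WT, hsromega66, Hsp90GFP and the recombinant-labelled libraries. Its gene (2R 18775669 to 18776978, minus strand, 1 exon) overlaps the antisense RNA gene CR43964 over 1137 bp of exon, and how the authors treated strand was not stated in the sources used here. CG5599 (Dbct), a subunit of the complex that breaks down branched-chain amino acids, was at 2.08, 2.64, 2.67 and 26.9 FPKM. CG9396, of the mitochondrial pyruvate carrier family, was at 0.483, 2.62, 4.39 and 96.2 FPKM, beside CG9399 of the same family at 5.20, 10.96, 9.20 and 74.5. The level of CG9396 in WT was the lowest of its groups, while the 3 other groups of CG5599 and of CG15093 each lay within 1.3 times of each other. The immune peptide was CG5791 (BomBc3), a bomanin, one of the short secreted peptides made under Toll signalling, at 0.352, 0.136, 0.499 and 44.6 FPKM. The bomanin next to it, CG5778 (BomT3), was at 0.0604, 0.370, 0.437 and 9.51 FPKM, and neither was called.

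The 29 genes for which no role is given held the highest levels and the largest ratios. CG32198 (3L 18526976 to 18527445, plus strand, 1 exon) was at 259, 232, 297 and 4881 FPKM in WT, hsromega66, Hsp90GFP and the recombinant-labelled libraries, the 37th highest row of the table there. It was also the most abundant of the 46 in each of the other groups, which lay within 1.3 times of each other. CG32284 (3L 3186664 to 3187245, plus strand) was at 10.3, 126, 164 and 2622 FPKM, so that WT stood apart from both single genotypes. CG7299 followed at 36.4, 92.6, 70.9 and 1092 FPKM. CG15515 was at 1.34, 6.23, 1.62 and 544 FPKM, CG15597 at 2.99, 11.8, 4.86 and 473, CG32603 at 7.75, 18.5, 25.3 and 445, and CG44040 at 2.68, 6.98, 2.63 and 369. In CG15515, CG15597 and CG44040 hsromega66 was the highest of the other groups. CG5550, of the fibrinogen-related family, was at 0.434, 2.53, 4.11 and 266 FPKM.

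CG11350 (3L 4482809 to 4484370, plus strand, 2 exons) combined a high level with a large ratio, at 0.635, 0.836, 2.69 and 907 FPKM in WT, hsromega66, Hsp90GFP and the recombinant-labelled libraries, 337 times the highest other group. CG12607, at the other end of the same stretch of 3L, was at 0.257, 0.748, 0.883 and 96.9 FPKM. The 12 rows from CG12607 to CG13722 did not move together. CG32241 rose to 177 FPKM from 3.15 in WT, 24.8 in hsromega66 and 6.48 in Hsp90GFP, and with CG11350 was called higher in all 3 comparisons, whereas CG32249 stayed uncalled at 418, 665, 456 and 629 FPKM and CG13722 was at 24.8, 34.3, 8.48 and 6.29. CG13722 was called lower in the recombinant-labelled libraries against WT (q = 0.0497 in the authors' deposited table) and hsromega66 (q = 0.00372 in the authors' deposited table).

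Other large ratios belonged to 5 genes that were at 2.83 FPKM or less in each group outside the recombinant-labelled libraries. CG42815 was listed at 0.0754 FPKM in WT, at 0 in hsromega66 and Hsp90GFP and at 28.4 in the recombinant-labelled libraries. CG13230 was listed at 0, 1.34, 1.11 and 162 FPKM, CG40198 at 1.80, 0.587, 2.01 and 211, and CG13705 at 0.386, 2.83, 0.818 and 207. CG30457 was at 0.676, 2.69, 1.85 and 143 FPKM. Of the other groups hsromega66 was highest for CG13230, CG13705 and CG30457, and Hsp90GFP for CG40198. The remaining 14 genes without a stated role, CG14419, CG7214, CG43315, CG43920, CG32073, CG42369, CG17974, CG42821, CG43134, CG12911, CG45079, CG11893, CG13445 and CG13545, ran from 23.3 to 223 FPKM in the recombinant-labelled libraries and from 0 to 10.2 FPKM in the other groups, with ratios of 10.04 to 45.5.

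At the limit of 10 times, the genes just inside were CG42821 (10.04 times), CG5599 (10.1), CG43315 (10.2) and CG33127 (10.3), and those just outside were CG5804 (9.62), CG10953 (9.46), CG13324 (9.43) and CG9757 (9.32). CG5804 and CG9757 were at 2091 and 1092 FPKM in the recombinant-labelled libraries, above all but the 2 and the 3 highest of the 46. At the limit of 20 FPKM, CG13545 (23.3 FPKM), CG13445 (24.96), CG11893 (25.2) and CG45079 (25.4) were just inside, and CG43678 (18.4), CG34456 (15.6), CG31664 (14.8) and CG31248 (14.3) just outside.

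A gene was called when the authors' deposited table gave it a q-value under 0.05 from a completed test. Against WT, 28 of the 46 were called higher in the recombinant-labelled libraries, where 4.61% of all tested rows were. Against hsromega66 the count was 34 (3.68% of tested rows), and against Hsp90GFP 34 (3.51% of tested rows). Because the genes were chosen on these same values, nothing is read from those counts. The number of comparisons in which each gene was called rests on the same values and is likewise only a description. No share of all rows called in all 3 was computed. Of the 46, 26 genes were called in all 3 comparisons, 7 in 2, 4 in 1 and 9 in none. The 9 were CG33127, CG42369, CG13230, CG43920, CG13545, CG45079, CG5791, CG9780 and CG14419, with q from 0.102 to 0.71 in the authors' deposited table, although 3 of them, CG13230, CG5791 and CG9780, were among the 12 largest ratios.

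All 9 shared their deposited locus, the stretch of genome over which the authors' pipeline bundled transcripts, with other rows. In all 11 of the 46 shared a locus, and the other 2 were CG5550 and CG15093. The 35 genes alone in their locus were each called in at least 1 comparison, 25 of them in all 3. The standard error implied by the deposited statistic is the log2 ratio divided by that statistic. It ran from 1.74 to 45.1 log2 units in the 9 uncalled genes, against 0.785 to 1.42 in the genes called in all 3. The deposited p-values do not follow from that statistic alone, so these errors do not show what decided the calls. For the recombinant-labelled libraries against WT, CG1304 had a statistic of 5.45 with a Cuffdiff p of 0.112. CG14419 had a statistic of 0.644 with a Cuffdiff p of 0.0218. Over the whole table, in shared loci 1.68% of tested rows were called higher in the recombinant-labelled libraries than in WT, and in loci of 1 row 7.1%. Of the 46, 8 lie inside or across another gene without sharing exon with it, such as CG9780 in cpx, CG14419 in kirre and CG33127 in Plc21C. The host genes cpx and kirre were not called: cpx was at 10.6, 8.90, 10.3 and 15.3 FPKM in WT, hsromega66, Hsp90GFP and the recombinant-labelled libraries, and kirre at 0.946, 0.996, 1.32 and 1.03. How shared reads were divided among the rows of a locus was not stated in the sources used here, and its part in the missing calls was not tested.

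**Figure D3:**
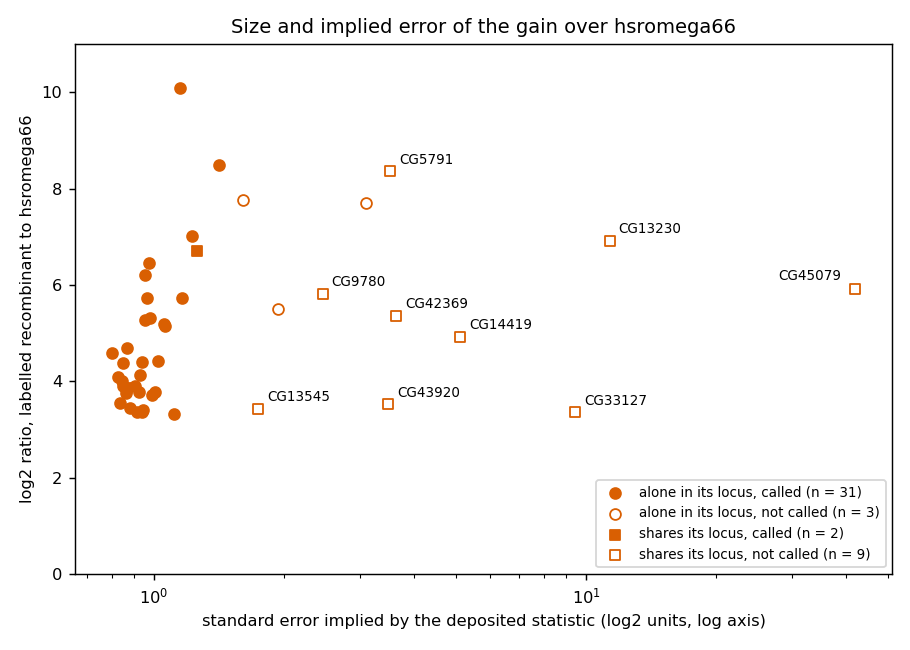
Log2 ratio of the recombinant-labelled libraries to hsromega66 (vertical axis) against the standard error implied by the deposited statistic (horizontal log axis, log2 units), for the 45 of the 46 genes with a level above 0 in hsromega66. Circles are genes alone in their locus and squares genes that share it, filled where the authors' test called them. The 9 open squares and 3 open circles lie to the right of nearly all filled symbols, with ratios like those of the filled symbols. Deposited p-values do not follow from this statistic alone.

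Levels of 0 stood behind some calls. In 5 comparisons with the recombinant-labelled libraries the other group was listed at 0, and 4 of these were called. The 4 genes involved were CG13230, CG42815, CG43134 and CG13445, and in their 7 comparisons with groups above 0 none was called by Cuffdiff and 1 had an unadjusted p under 0.05. No fold is given against a group listed at 0. Outside those, CG12607 and CG1304 were called against hsromega66 and Hsp90GFP but not against WT, where their ratios were larger, at 377 (q = 0.676 in the authors' deposited table) and 622 (q = 0.482 in the authors' deposited table).

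The comparisons without the recombinant-labelled libraries played no part in the choice of genes except through the highest of the 3 levels. Against WT, 34 of the 46 were listed higher in hsromega66 and 12 lower, where 45.4% of all tested rows were listed higher. Among the 43 listed above 0 in both groups, 22 were at least 2-fold higher and 4 at least 2-fold lower, where 6.53% and 4.79% of tested rows above 0 in both were. Of the 43 that were tested, 1 was called higher (0.862% of tested rows), CG32284, at 12.3-fold (q = 0.00372 in the authors' deposited table). The median difference of the 46 in log2(FPKM + 1) was 0.61, against -0.03 over 12523 tested rows. In Hsp90GFP, 35 were listed higher than in WT and 11 lower, where 44.8% of all tested rows were listed higher. Among the 42 above 0 in both groups 17 were at least 2-fold higher (5.93% of such tested rows) and 1 at least 2-fold lower (4.91%). Of 44 tested, 3 were called higher (0.618% of tested rows): CG32284 at 15.9-fold (q = 0.00144 in the authors' deposited table), CG8774 at 4.08-fold (q = 0.00372 in the authors' deposited table) and CG15533 at 9.77-fold (q = 0.00472 in the authors' deposited table). The median difference was 0.53, against -0.04 over 12621 tested rows.

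WT was thus below both single genotypes for 27 of the 46 genes (58.7%), where that held for 27.2% of rows tested in both comparisons. These comparisons share the WT libraries, so a WT level that was low by error would move both, and both also carry the difference in background. Of these, CG32284 was called against WT in both single genotypes, while CG1304, CG9396 and CG5550, each under 0.5 FPKM in WT, were called in neither. For CG40198 (1.80 FPKM in WT, 0.587 in hsromega66) and CG31233, WT was not the lowest group. Between Hsp90GFP and hsromega66, which share the background by label, 21 were listed higher and 24 lower in Hsp90GFP. Of all tested rows 48.3% were listed higher there. Among the 44 above 0 in both groups, 8 were at least 2-fold higher (5.07% of such tested rows) and 8 at least 2-fold lower (5.93%). Cuffdiff called 0 of 44 tested there (0.997% of tested rows in either direction), with 1 at an unadjusted p under 0.05. The lowest q was 0.151 for CG13705 in the authors' deposited table, which was at 2.83 FPKM in hsromega66 and 0.818 in Hsp90GFP. The median difference was -0.10, against -0.01 over 12534 tested rows.

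**Figure D4:**
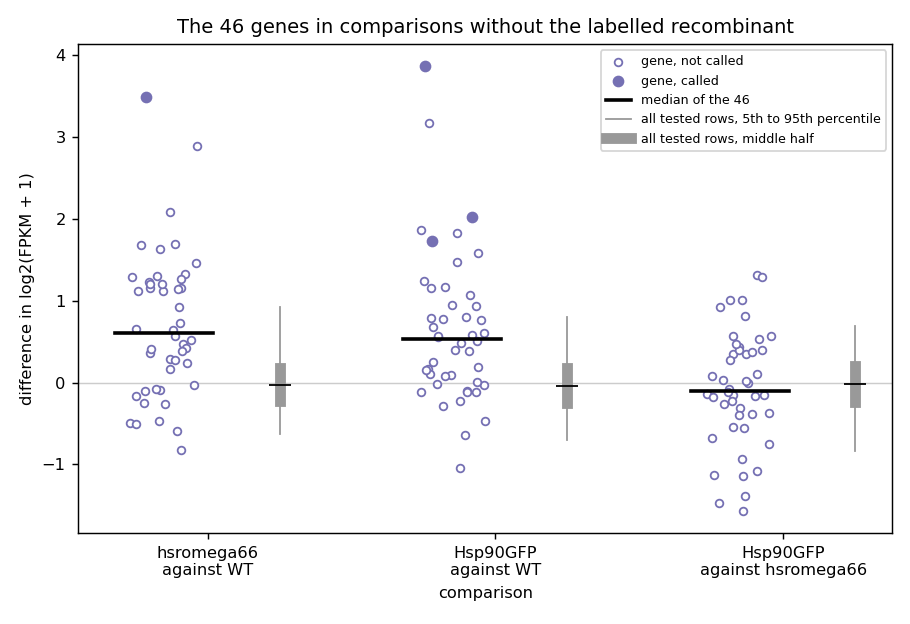
Difference in log2(FPKM + 1) of each of the 46 genes (circles, filled where called) in the 3 comparisons without the recombinant-labelled libraries, with their median (black line) beside the spread of all tested rows (grey bars). The medians are 0.61 and 0.53 in the comparisons with WT, which share the WT libraries, and -0.10 between Hsp90GFP and hsromega66.

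The genes were spread over the genome, with 7 on 2L, 9 on 2R, 10 on 3L, 15 on 3R and 5 on X, and none on 4 or Y. The share on 3R was 32.6%, where 25.2% of CG rows at 20 FPKM or more in the recombinant-labelled libraries lie. Only the 2 pairs above, 4 genes or 8.7%, lay within 20 kb of another of the 46. Neighbours that missed the thresholds were more frequent: 24 of the 46 (52.2%) had within 20 kb a row at 5 FPKM or more in the recombinant-labelled libraries and at least 4 times every other group, against 294 of the 1267 other CG rows at 20 FPKM or more (23.2%). That definition was set after the values were seen, and the difference was not tested. The neighbours were 33 further rows, most of them CG rows, with Ser6, next to CG1304, Acp1, next to CG7214, and Rh50, next to CG13705, among the named ones. The definition asks for no call, and not all of these rows were called. Ser6 and Rh50 were called higher in each comparison with the recombinant-labelled libraries, and Acp1, at 8.39 FPKM there, in none.

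The genes without a stated role were short. The median exonic length was 646 bp over those 29 and 1722 bp over the 17 with a role. Over the 46 it was 996 bp, against 1352 bp over 1309 CG rows at 20 FPKM or more with an annotated length. Under 600 bp were 14 of the 46 (30.4%), against 138 of 1263 other such rows (10.9%). All 14 were genes without a stated role, among them CG32198 (470 bp), CG32284 (457 bp), CG15515 (472 bp) and CG44040 (314 bp). Of the 46, 12 have 1 exon and 17 have 2. FPKM divides by length, and the length limit was set after the values were seen, so whether length bears on the choice of genes was not tested.

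Marker genes of tissues and stages differed in the recombinant-labelled libraries, and the counts of calls against WT given for them stand beside 4.61% of all tested rows called higher and 4.05% called lower. The summed level of the 6 salivary glue genes was 46180 FPKM in WT, 50410 in hsromega66 and 28410 in Hsp90GFP, but 28.1 in the recombinant-labelled libraries, and that of 10 ecdysone response genes was 477, 440, 351 and 52.8. Against WT, 2 of the 6 glue genes and 5 of the 10 ecdysone response genes were called lower and none higher. Pupal cuticle genes summed to between 1757 and 3079 FPKM in the other groups and to 57.2 in the recombinant-labelled libraries, with Edg84A listed at 0 and 1 of 5 called lower. Testis genes summed to between 371 and 536 FPKM and to 20.3, with 9 of 17 called lower. Of 41 gut digestive enzyme genes, 14 were called higher and 2 lower than in WT, with sums of 15200, 37200, 18180 and 46950 FPKM. Of 15 larval cuticle genes, 7 were called higher and 2 lower, and of 23 detoxification genes 9 and 1. Muscle, neuron and Malpighian tubule lists had no call by Cuffdiff against WT, with 1 of 18 genes at an unadjusted p under 0.05, and their sums in the recombinant-labelled libraries were 15250, 37.0 and 41.5 FPKM, against 4055 to 8293, 35.4 to 44.98 and 17.6 to 35.5 in the other groups. Blood cell genes summed to 274, 227, 589 and 779 FPKM, and 2 of 6, PPO1 and PPO2, were called higher than in WT. Fat body storage genes summed to 45350, 26430, 28670 and 25270 FPKM, and 2 of 5 were called lower than in WT, Lsp2 (10998 FPKM in WT and 178 in the recombinant-labelled libraries) and Fbp1 (5996 and 2.49). In hsromega66 and Hsp90GFP that sum lacks Lsp1gamma, which was at 12858 FPKM in WT, 2.099 and 1.62 in those groups and 8541 in the recombinant-labelled libraries. The part of tissue makeup or of stage in the levels of the 46 genes was not tested.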

How the data were processed

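RNA of 8 libraries was sequenced as 50 bp paired reads after ribosomal RNA depletion, per the labels. The submitters' processing notes name the build dm6 and, as tools, Bowtie, TopHat, Cuffdiff 2.1.1 and Cufflinks. Other versions and the settings for multi-reads and strand were not stated in the sources used here. The authors deposited 6 pairwise tables of 15904 rows. Per the file headers, each holds 1 FPKM per group and gene, a test statistic (a score), and the authors' p-value and q-value, with a smallest deposited p-value of 5e-05. The FPKM of a group was identical in every table that holds it.

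The 46 genes were taken by the thresholds stated in the report. The members and the lists were chosen with earlier results of these data known. Ratios are of FPKM, and log2 differences used log2(FPKM + 1), which understates differences of low genes. A call is a deposited q-value under 0.05 with status OK; no test was computed here. Rows were matched by symbol to the Ensembl release 115 annotation (BDGP 6.54, the assembly of dm6), and all 46 matched. Named in full were the 12 highest levels, the 12 largest ratios, the genes in close pairs and the rows between them, the genes nearest each threshold and those called without the libraries labelled as the recombinant. Family neighbours, roles, the 600 bp limit and the limits on neighbours (5 FPKM, 4 times, 20 kb) were chosen after the values were seen. The code of the rule was run on simulated data with planted rises well above both limits. That run checks the code and says nothing about the choice of genes near the limits. Protein and promoter sequences were not analysed here. The tables hold no counts, so the depth is unknown and no interval is given. Scripts ran under Python 3.11.15 with pandas 2.3.3, numpy 2.4.6, matplotlib 3.10.9 and scipy 1.17.1.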

Additional observations from a re-analysis of the deposited data

How the results depend on the processing

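No paired analysis was possible because the tables hold 1 value per group, and for the same reason no library could be left out. The number of genes was 46, 113 at 5 times or more and 21 at 20 times or more, and the number in close groups was 4, 30 at 5 times, 0 at 20 times and 2 with gaps of at most 10 kb. At an unadjusted p under 0.05 in place of q, calls among the 46 numbered 10 for hsromega66 against WT (1 by q), 7 for Hsp90GFP against WT (3 by q) and 1 for Hsp90GFP against hsromega66 (0 by q). The share of all tested rows at that unadjusted limit was not computed, so nothing is read from these counts. The median log2 difference of hsromega66 against WT was 0.61, 1.16 with a pseudocount of 0.1, 0.92 without genes under 1 FPKM in both groups and 0.51 with FPKM rescaled to equal sums. For Hsp90GFP against WT it was 0.53, 0.83 with a pseudocount of 0.1 and 0.68 with the 1 FPKM limit. For Hsp90GFP against hsromega66 it was -0.10 and turned to 0.039 when rescaled, so that no direction is given there; the rescaling itself shifts the groups by their unequal sums. The other 47 values under alternatives stayed within 1.5 times for counts and within 0.1 for medians. Among these, 32 of the 46 genes still met the thresholds with FPKM rescaled to equal sums. With the fold taken on FPKM + 1 it was 39, and with FPKM divided by the median ratio to WT 42. The alternatives on annotated coordinates and on genes alone in their locus were chosen after seeing the data. The sequence alternatives were not run.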

Other observations

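The same thresholds were met by 39 of the 9098 rows that are not a single CG symbol (0.429%), a number that includes rows merging several symbols. Of these, 10 were cuticle protein genes, led by Cpr47Eg, at 1.58 FPKM in WT, 2.47 in hsromega66 and 15.5 in Hsp90GFP, but 2496 in the recombinant-labelled libraries. Further ones were Nplp2, a neuropeptide-like precursor gene, at 191, 361, 523 and 7369 FPKM, and the antimicrobial peptide genes AttC, DptB and Def, with DptB at 6.67, 38.0, 6.44 and 469 FPKM. The set also held 5 miRNA and 2 snoRNA rows, of which 6 were listed at 0 in WT, hsromega66 and Hsp90GFP and none was called by Cuffdiff or had an unadjusted p under 0.05 in a comparison with the recombinant-labelled libraries. Of the 39, 17 were called higher in all 3 of those comparisons. The thresholds chose these rows on the same values, so that count is a description, with no share of all rows computed.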
